A study of Homo sapiens with 82 samples.

Results

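Late LXRB sites at JunD sites are stretches of the HT29 genome where LXRB was found by ChIP-seq after 48 h of the LXR agonist GW3965, where no LXRB site was found after 2 h, and where JunD was already found in cells given only the carrier DMSO. Where a Rep1 peak and a Rep2 peak shared 1 bp or more, their joined extent was taken as a site. Of 9218 LXRB sites at 48 h, 2516 (27.3%) met the rule, chosen by the presence of LXRB peaks at 48 h, their absence at 2 h and the presence of JunD peaks. Among all 48 h LXRB sites 63.2% had no 2 h LXRB site and 50.9% had a JunD site. The other 48 h sites were 3311 late sites without JunD, 2175 persistent sites at JunD sites, where persistent means that LXRB was also found at 2 h, and 1216 persistent sites without JunD.

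LXRB (gene NR1H2) and LXRA (NR1H3) are nuclear receptors that bind DNA as partners of RXR and respond to oxysterols. In the colon they are known for raising sterol efflux and lipid synthesis genes. PPARG is a related receptor, also paired with RXR, that responds to fatty acids. JunD is a subunit of AP1, a family of dimers of JUN, FOS, ATF and MAF proteins that bind enhancers and promoters and answer to growth factor and stress signals. H3K27ac marks active enhancers and promoters, and RNAP2 (RNA polymerase II) is found at genes being transcribed and at active enhancers.

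HT29 is an established line of human colorectal cancer cells, so all values come from 1 line. ChIP-seq had 2 replicates in each group: LXRB and LXRA after 2 or 48 h of GW3965, PPARG after 2 or 48 h of rosiglitazone (an agonist of PPARG), JunD in DMSO, and H3K27ac and RNAP2 in DMSO and after 24 or 48 h of GW3965 or rosiglitazone. RNA-seq had 4 replicates of DMSO, GW3965, T0901317 (another LXR agonist) and rosiglitazone at 24 h and at 48 h. Each drug was used at 10 μM. How long the DMSO cells of ChIP-seq were kept is not stated by the labels. LXRA was detected through a FLAG tag on a transfected copy in a pool of HT29 cells selected with G418, while LXRB and PPARG were the cells' own proteins. JunD was profiled in DMSO alone, so JunD at these sites after drug treatment is not known. The labels do not say whether replicates were separate cultures, so tests measure the spread between these libraries.

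The 34 peak files held between 4555 and 35934 peaks each, and no peak of a replicate pair was identical in position and score. The track lines of the peak files name 1 shared input library for both replicates of a group, except for PPARG at 2 h, where each replicate had its own. LXRB replicates were of unequal size, with 7583 and 4555 peaks at 2 h and 11100 and 14788 at 48 h. Read depths were not given by the peak files, so the limit of detection in each library is unknown. In RNA-seq, EPCAM, an epithelial marker, lay between 243 and 359 CPM (counts scaled to a common library size) in 32 libraries and VIL1, a marker of intestinal epithelium, between 53.2 and 258, while PTPRC, a leukocyte marker, was at most 0.112. CDH1, also epithelial, lay between 235 and 691 CPM and CDX2, also of intestinal epithelium, between 6.43 and 20.6. COL1A1, a fibroblast marker, was not absent, at 2.42 to 8.51 CPM.

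The scores that chose the members are given here as a description. A score is the log10 of the MACS p of a peak multiplied by -10, and the lowest deposited score was 100. Members had median LXRB scores of 181 in Rep1 and 207 in Rep2 at 48 h, with quartiles of 139 and 251 in Rep1 and of 151 and 297 in Rep2. Late sites without JunD had medians of 146 and 174, and persistent sites at JunD sites had medians of 345 and 374. Members therefore lay between these sets in both libraries. The lower of the 2 LXRB scores was under 150 at 1081 members (43.0%) and over 500 at 44 (1.75%), against 10.5% and 23.0% of persistent sites at JunD sites. The Spearman correlation of both replicates' LXRB scores over the members was 0.636, and members were points of the same pair of libraries.

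JunD scores showed the same order. Members had median JunD scores of 216 in Rep1 and 264 in Rep2, and persistent sites at JunD sites had 346 and 401. The centres of the LXRB and JunD sites were a median of 62.5 bp apart at members, with quartiles of 27.5 and 177 bp, and at 1929 members (76.7%) they were within 200 bp. At persistent sites at JunD sites the median was 71.5 bp. The members lay over 2462 JunD sites, and 4 members spanned 2 or more of them. A merged LXRB site was a median of 948 bp wide, with a range from 322 to 7135 bp, and 212 members (8.43%) were wider than 2000 bp. Persistent sites at JunD sites were wider, with a median of 1152 bp.

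**Figure D1:**
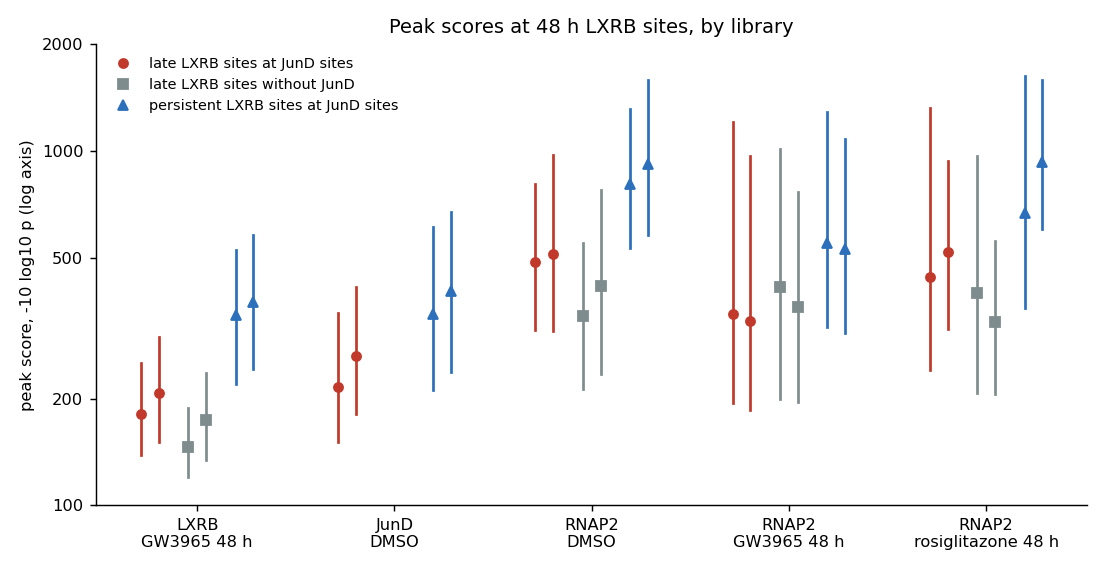
Median peak score (point) and quartiles (ends of the line) at sites with a peak, on a log axis, for each replicate library (Rep1 left, Rep2 right) of LXRB, JunD and RNAP2 at members and at 2 other sets of 48 h LXRB sites. Members had LXRB medians of 181 and 207, between late sites without JunD (146 and 174) and persistent sites at JunD sites (345 and 374); late sites without JunD have no JunD site by their definition and are left out there.

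Lateness rested on both replicates of 2 h. No 2 h LXRB peak of either replicate touched 1480 members (58.8%). A peak in Rep1 alone touched 818 members, with a median score of 141, and a peak in Rep2 alone touched 216, with a median score of 124. A further 2 members were touched by separate peaks of both replicates that did not overlap each other. The 2 h LXRB peak share was thus 32.6% in Rep1 and 8.66% in Rep2 at members, against 24.5% and 4.08% at late sites without JunD. Many members therefore held a weak LXRB peak in the larger of the 2 h libraries.

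At the limits of the rule, the member with the smallest overlap shared 2 bp with a JunD site, and it lay at chr18:68000772-68001549 (hg19, as all coordinates here) with LXRB scores of 152 and 138. Only a JunD peak of Rep1, with a score of 166, touched this member. A late site at chr4:120649902-120650980 abutted a JunD site with a gap of 0 bp and scores of 184 and 205, and so fell outside. The member at chr12:26275547-26277046 was 2 bp away from a 2 h LXRB site, with scores of 165 and 266. The site at chr20:61394323-61397561 overlapped a 2 h LXRB site by 2 bp, which made it persistent, with scores of 525 and 746. Only 5 members overlapped JunD by under 100 bp, and 22 had LXRB scores under 110 in both replicates. Among the late sites without JunD, 794 held a JunD peak in 1 replicate.

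Members made up between 20.9% (chromosome 15) and 32.7% (chromosome 18) of the 48 h LXRB sites of a chromosome, and 86 members lay on chromosome 8. The nearest 2 h LXRB site was a median of 88670.5 bp away, and 440 members (17.5%) had one within 10 kb. Another 48 h LXRB site lay within 10 kb of 853 members (33.9%). Genes near the members and the sequences under them were not analysed here.

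The member with the highest lower LXRB score was at chr19:38797509-38803840, where LXRB scored 1689 and 3100 at 48 h and JunD scored 2700 and 3100. It also held separate 2 h LXRB peaks, with scores of 171 in Rep1 and 400 in Rep2, and RNAP2 peaks of 3100 in both DMSO libraries and in both 48 h GW3965 libraries. The next was at chr21:46493421-46495460, with LXRB scores of 952 and 999.6 at 48 h and a 2 h LXRB peak of 232 in Rep1. It had JunD scores of 295 and 427 and PPARG scores of 1068 and 656 at 2 h of rosiglitazone. At chr20:361236-364810 LXRB scored 898 and 1513, and this member had no 2 h LXRB peak and held LXRA at 48 h (901 and 1264), PPARG at 2 h (1651 and 855) and RNAP2 of 3100 in DMSO and after 48 h of GW3965. These 3 members were 6332, 2040 and 3575 bp wide and had RNAP2 peaks in every DMSO and 48 h GW3965 library.

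The other 7 of the 10 members with the highest LXRB scores had lower LXRB scores between 683 and 729. They were at chr12:104747932-104752011 with LXRB scores of 729 and 931, chr22:39918525-39919946 with 724 and 964, chr17:17711875-17714604 with 704 and 1412, chr7:37071098-37072308 with 703 and 810, chr5:179222077-179224309 with 702 and 1488, chr17:7758250-7761900 with 688 and 1251, and chr11:118764183-118766975 with 683 and 1022. A 2 h LXRB peak of 1 replicate lay on the members at chr7:37071098-37072308 (209, Rep1), chr17:7758250-7761900 (304, Rep2) and chr11:118764183-118766975 (109, Rep1). All 10 held RNAP2 peaks in both DMSO and both 48 h GW3965 libraries. At chr17:17711875-17714604 only the Rep2 part of the JunD site, with a score of 263, lay on the member. The RNAP2 scores there were 215 and 252 in DMSO and 3100 in both libraries of 48 h GW3965, and no H3K27ac peak of DMSO or of 48 h GW3965 was present. At chr7:37071098-37072308 all 3 receptors were found. LXRA scored 1058 and 473 at 2 h and 624 and 963 at 48 h, and PPARG scored 331 and 120 at 2 h. The strongest JunD peaks outside these 10 reached 3100 in both replicates at chr12:57912646-57914965, chr12:46764591-46766915 and chr17:39848118-39849972. LXRB scored 574 and 707, 266 and 358, and 372 and 546 there. At the last of them no H3K27ac peak was present in DMSO or after 48 h of GW3965 although RNAP2 scored 3100 in all 4 of these libraries.

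The question of whether other receptors used these sites was addressed with the LXRA and PPARG libraries, which the rule did not use. LXRA peaks were found at 85.7% and 72.3% of members after 2 h of GW3965 and at 85.1% and 93.8% after 48 h. The share was 10.5 percentage points higher at 48 h, within the spread of the replicates (exact permutation test of 2 against 2 libraries, two-sided p = 0.667, where 0.333 is the smallest p possible). PPARG peaks were found at 80.7% and 65.1% of members after 2 h of rosiglitazone and at 76.2% and 40.9% after 48 h. The share was 14.4 points lower at 48 h, and here too the replicates overlapped (exact permutation test, p = 0.667). The smaller PPARG library at 48 h, with 8933 peaks against 15378 in its replicate, gave the lowest share. With equal numbers of the highest-scoring peaks in every PPARG library the difference was 2.11 points, in the opposite direction.

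Most members thus held an LXRA or PPARG site after 2 h of GW3965 or rosiglitazone, when no LXRB site was called there, at shares near those of all 48 h LXRB sites. Of 2516 members, 1815 (72.1%) overlapped an LXRA site and 1585 (63.0%) a PPARG site at 2 h, 1329 (52.8%) overlapped both and 445 (17.7%) neither. Over all 48 h LXRB sites the 2 h shares were 71.3% for LXRA and 59.4% for PPARG. At 48 h, LXRA sites were at 2139 members (85.0%, against 80.8% of all) and PPARG sites at 1036 (41.2%, against 39.9% of all). From 2 to 48 h, 408 members (16.2%) gained an LXRA site and 84 (3.34%) lost one, against 13.4% and 3.89% of all 48 h LXRB sites. A PPARG site was lost at 589 members (23.4%) and gained at 40 (1.59%), against 20.5% and 1.01% of all 48 h LXRB sites. Shares near these backgrounds are not particular to the members. A total of 242 members (9.62%) had no LXRA and no PPARG site at any time. This count, and those of both receptors or neither at 2 h, were made at members alone and have no background.

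The peak libraries of LXRA and PPARG differed in size along with these shares. LXRA libraries held 30953 and 19357 peaks at 2 h and 18436 and 29263 at 48 h, so Rep1 was the larger at 2 h and Rep2 the larger at 48 h, in the order of their shares. PPARG libraries held 24039 and 15804 peaks at 2 h and 15378 and 8933 at 48 h, and the counts of lost PPARG sites were not adjusted for this. LXRA was expressed from a transgene, and its binding was therefore measured at the level of that transgene. PPARG sites at 2 h were found at 63.0% of members, 44.3% of late sites without JunD and 87.8% of persistent sites at JunD sites, and these shares stand as a description.

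**Figure D2:**
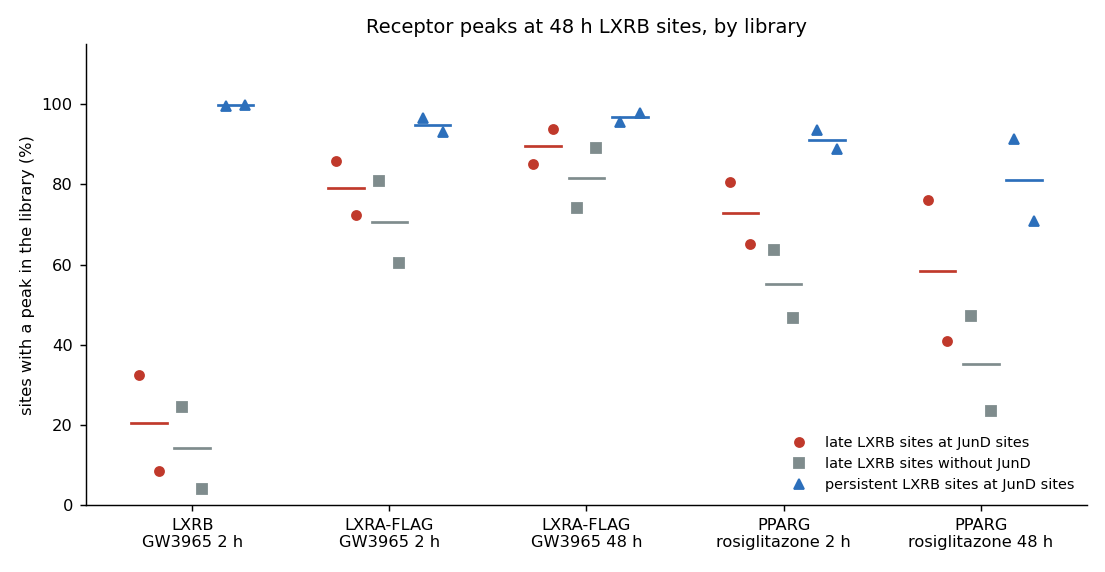
Share of sites with a receptor peak (%, y axis) in each replicate library (points; the short line is the mean of 2) for members, late LXRB sites without JunD and persistent LXRB sites at JunD sites. At members the 2 h LXRB shares are 32.6% and 8.66%, LXRA shares lie between 72.3% and 93.8% and PPARG shares between 40.9% and 80.7%, with wide gaps between replicates.

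RNAP2 was present at nearly all members before treatment and at fewer of them after GW3965. RNAP2 peaks were found at 97.9% and 96.9% of members in DMSO, at 83.1% and 89.2% after 24 h of GW3965, at 83.9% and 80.6% after 48 h of GW3965, at 99.0% and 96.5% after 24 h of rosiglitazone and at 93.7% and 98.0% after 48 h of rosiglitazone. The 4 GW3965 libraries were all below the 4 rosiglitazone and the 2 DMSO libraries. The mean was 84.2% ± 3.63 (SD, n = 4) with GW3965 and 96.8% ± 2.30 (SD, n = 4) with rosiglitazone, a difference of -12.6 points (exact permutation test, two-sided p = 0.0286, Benjamini-Hochberg adjusted p = 0.0457 over 8 tests). This p is the smallest that 4 against 4 libraries allow. The test pooled the 24 h and 48 h libraries of each drug and took no account of time. Against DMSO the GW3965 share was 13.2 points lower (97.4% in DMSO), with an exact permutation p of 0.133 that is the smallest possible for 4 against 2, and the rosiglitazone share differed by -0.586 points (exact permutation p = 0.933).

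Peak numbers moved with this result: RNAP2 libraries held 27249 to 32831 peaks with GW3965, 29289 to 35934 with rosiglitazone and 30638 and 35010 in DMSO. With equal numbers of the highest-scoring peaks in every library the difference was -4.39 points and did not pass the test (exact permutation p = 0.0857), and the share of these differences that rests on library size was not tested further. After subtraction of the share at persistent sites at JunD sites in the same library, it was -11.3 points (exact permutation p = 0.0286). Persistent sites at JunD sites held RNAP2 peaks at 96.3% to 99.7% in every library, near the ceiling of this measure. Their share could hardly fall, so this subtraction cannot show that a lower share was particular to members. After subtraction of the share at late sites without JunD the difference between the drugs was -4.45 points and did not pass the test (exact permutation p = 0.2). Late sites without JunD held RNAP2 at 86.8% and 86.6% in DMSO and at 71.6% to 75.5% in the 4 GW3965 libraries, so a lower share with GW3965 was not particular to members.

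**Figure D3:**
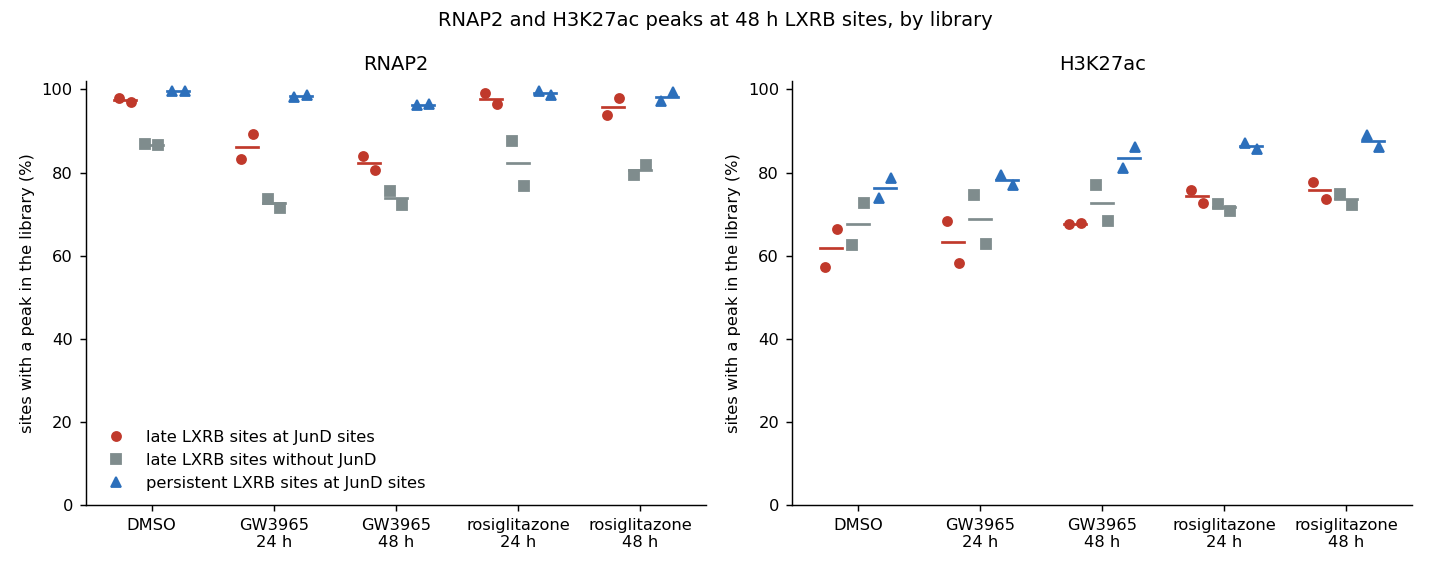
Share of sites with an RNAP2 peak (left) or an H3K27ac peak (right) in each library (%, y axis) by treatment, for members, late LXRB sites without JunD and persistent LXRB sites at JunD sites; points are replicate libraries and short lines the mean of 2. RNAP2 shares at members lie between 80.6% and 89.2% in the 4 GW3965 libraries and between 93.7% and 99.0% in the others, while H3K27ac shares run from 57.2% in DMSO to 77.8% with rosiglitazone.

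RNAP2 was also found more often at members than at late LXRB sites without JunD. The mean share over the 10 RNAP2 libraries was 91.9% at members and 79.2% at late sites without JunD, a difference of 12.7 ± 4.02 points (SD over libraries, n = 10), with members higher in 10 of 10 libraries (exact paired permutation test, two-sided p = 0.00195, adjusted p = 0.00521). LXRB scores were higher at members than at these sites, and within 4 bands of the LXRB rank that held equal numbers of the sites the difference was between 8.23 and 13.8 points, with members higher in 10 of 10 libraries in each band. Compared with persistent sites at JunD sites (98.4%), members were 6.47 points lower in 10 of 10 libraries (exact paired permutation p = 0.00195, adjusted p = 0.00521). That difference ran from -15.8 to -0.718 points and was widest in the GW3965 libraries, and its mean over 4 bands of the LXRB rank was -3.96 points (exact paired permutation p = 0.00391).

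Site by site, RNAP2 was called in both replicates of DMSO at 2421 members (96.2%), at 2007 (79.8%) after 24 h of GW3965, at 1942 (77.2%) after 48 h of GW3965, at 2412 (95.9%) after 24 h of rosiglitazone and at 2339 (93.0%) after 48 h of rosiglitazone. Over all 48 h LXRB sites these shares were 90.8%, 77.8%, 79.2%, 86.3% and 84.5%, so members were above them in DMSO and with rosiglitazone, and at 48 h of GW3965 slightly below. An RNAP2 site of DMSO was lost at 48 h of GW3965 at 492 members (19.6%), where the background over all 48 h LXRB sites was 13.6%, and gained at 13 (0.517%), where the background was 2.06%. After 24 h of GW3965 it was lost at 425 members (16.9%, background 14.3%) and gained at 11 (0.437%, background 1.28%). After 24 h of rosiglitazone it was lost at 82 (3.26%, background 7.56%) and gained at 73 (2.90%, background 3.05%). After 48 h of rosiglitazone it was lost at 144 (5.72%, background 8.82%) and gained at 62 (2.46%, background 2.55%). Losses at 48 h of GW3965 were 17.6% at late sites without JunD and 4.60% at persistent sites at JunD sites, and at 24 h they were 21.6% and 2.44%. These shares count all sites of a set, although only a site with RNAP2 in DMSO can lose it. RNAP2 was called in DMSO at 82.8% of late sites without JunD. The share lost at 24 h was lower at members although more of them had RNAP2 in DMSO. The higher share at 48 h cannot be read as a greater loss at members, and neither difference was tested. Likewise only the 95 members (3.78%) without RNAP2 in DMSO could gain it. At 401 members (15.9%) RNAP2 was lost at 48 h of GW3965 and kept at 48 h of rosiglitazone, and at 91 (3.62%) it was lost with both drugs. The same site was lost at both times of GW3965 at 269 members (10.7%), while 1773 (70.5%) kept RNAP2 at both times. These counts over more than 1 condition were made at members alone, so no background stands beside them.

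A loss means that a peak fell under the score limit, so members with low RNAP2 scores in DMSO were the nearest to a loss, and LXRB and JunD scores had chosen the members. The following shares are a description. Members were split into 4 bands of 629 by rank. In the lowest band by RNAP2 rank in DMSO, which includes members without an RNAP2 site in DMSO, 49.4% were lost at 48 h of GW3965, against 22.6%, 6.04% and 0.159% in the following bands. By LXRB rank the loss fell from 33.5% in the lowest band to 6.84% in the highest, and by JunD rank it was 21.0%, 25.8%, 21.9% and 9.54%. It was 24.3% at members without any 2 h LXRB peak and 12.9% at members with a peak in 1 replicate. Members with H3K27ac in DMSO lost RNAP2 in 9.78% of cases and members without it in 32.0% of cases. H3K27ac in DMSO was itself found at 23.8% of the lowest and 81.1% of the highest band by RNAP2 rank. With a PPARG site at 2 h 19.3% were lost and without one 19.98%. These splits share the same libraries and carry no test.

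**Figure D4:**
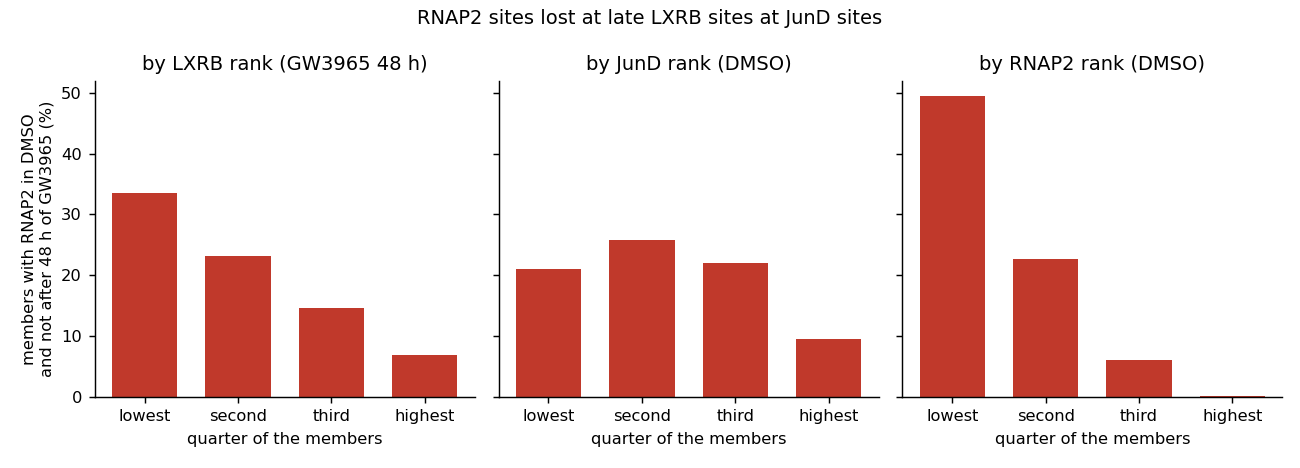
Share of members (%, y axis starting at 0) with an RNAP2 site in DMSO and none after 48 h of GW3965, in 4 bands of the members by mean rank of LXRB, JunD and RNAP2. The share falls from 33.5% to 6.84% with LXRB rank and from 49.4% to 0.159% with RNAP2 rank in DMSO.

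The rank of a peak within its own library, from 0 for no peak to 100 for the highest score, was compared between libraries. The rank of an unchanged peak moves with the number and make-up of the peaks in its library (30638 and 35010 in DMSO, 32831 and 28897 after 48 h of GW3965), so the counts are read only against those over all 48 h LXRB sites. The median RNAP2 rank of the members was 78.1 and 72.2 in DMSO, 60.3 and 58.6 after 24 h of GW3965, 49.6 and 47.0 after 48 h of GW3965, and 63.4 and 76.9 after 48 h of rosiglitazone. At 1836 members (73.0%) the RNAP2 rank in both 48 h GW3965 libraries was below both DMSO libraries, where the background was 61.1%, and at 174 (6.92%) it was above both, where the background was 11%. With 48 h of rosiglitazone the counts were 693 (27.5%, background 28.7%) below and 371 (14.7%, background 12%) above. The share below with GW3965 was 45.5% at late sites without JunD and 82.3% at persistent sites at JunD sites. The part of peak numbers in these counts was not tested.

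The 5 members with the highest LXRB scores among those that lost RNAP2 at 48 h of GW3965 were 869 to 1351 bp wide. At chr2:231548783-231550091 RNAP2 scored 317 and 228 in DMSO and had no peak in either 48 h GW3965 library, while H3K27ac was absent in 1 DMSO library and scored 537 and 285 after GW3965. At chr17:47049494-47050383 RNAP2 scored 283 and 349 in DMSO with no peak after GW3965 and no H3K27ac in these libraries. At chr20:43985763-43986631, chr7:17411081-17412431 and chr20:15683698-15684625 RNAP2 in DMSO scored 699 and 426, 425 and 310, and 583 and 475, and 1 of the 2 GW3965 libraries still held a peak of 173, 113 and 151. These losses were therefore incomplete at 3 of the 5. The 5 strongest members with a gained RNAP2 site, at chr6:141869951-141870698, chr14:23158370-23158976, chr2:158754902-158755646, chr17:27991763-27992863 and chr13:49323610-49324374, each had an RNAP2 peak in 1 DMSO library, with scores between 116 and 284.

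H3K27ac was found at fewer members than RNAP2, and at more members with rosiglitazone than with GW3965. Its peak share was 57.2% and 66.5% in DMSO, 68.3% and 58.3% after 24 h of GW3965, 67.7% and 67.8% after 48 h of GW3965, 75.9% and 72.7% after 24 h of rosiglitazone and 77.8% and 73.6% after 48 h of rosiglitazone. The 4 rosiglitazone libraries were above all others. For the test, the 24 h and 48 h libraries of each drug were again pooled without regard to time. The mean was 65.5% ± 4.80 (SD, n = 4) with GW3965 and 74.99% ± 2.29 (SD, n = 4) with rosiglitazone, a difference of -9.46 points (exact permutation test, two-sided p = 0.0286, adjusted p = 0.0457 over 8 tests). The library of 24 h GW3965 Rep2 stood apart, and without it the difference was -7.06 points, with an exact permutation p of 0.0571 that is the smallest 3 against 4 libraries allow. After subtraction of the share at persistent sites at JunD sites it was -3.38 points and did not pass the test (exact permutation p = 0.114). Rosiglitazone exceeded DMSO by 13.1 points and GW3965 exceeded it by 3.65, with exact permutation p of 0.133 and 0.267, where 0.133 is the smallest possible.

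Compared with persistent sites at JunD sites, members held H3K27ac less often in 10 of 10 libraries (68.6% against 82.4%, a difference of -13.8 ± 2.92 points, SD, n = 10, exact paired permutation p = 0.00195, adjusted p = 0.00521). Within the 4 bands of the LXRB rank the difference was between -10.4 and -6.82 points. Compared with late sites without JunD the mean difference was -2.26 ± 4.57 points and did not pass the test (exact paired permutation p = 0.148, range -9.27 to 3.39). As a mean over the 4 bands it was -4.02 points (exact paired permutation p = 0.0449), for members without any 2 h LXRB peak -4.95 (exact paired permutation p = 0.0273) and with scores of at least 200 it was 3.38 (exact paired permutation p = 0.0879), so neither its call nor its direction held. By library, members were lower than late sites without JunD in both DMSO libraries and in all 4 GW3965 libraries (differences of -9.27 to -0.602 points with GW3965), and higher in all 4 rosiglitazone libraries, by 1.49 to 3.39 points. The 2 drugs differed in this gap by -7.59 points (exact permutation p = 0.0286, a comparison chosen after its values were seen).

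Over single sites, H3K27ac was called at 1411 members (56.1%) in DMSO, 1573 (62.5%) after 48 h of GW3965 and 1831 (72.8%) after 48 h of rosiglitazone. Over all 48 h LXRB sites the shares were higher, at 64.1%, 69.8% and 75.5%. It was in all 5 conditions at 1157 members (46.0%) and in none at 521 (20.7%). From DMSO to 48 h of rosiglitazone 457 members (18.2%) gained an H3K27ac site, where the background was 13.8%, and 37 (1.47%) lost one, where the background was 2.38%. With 48 h of GW3965 there were 273 gains (10.9%, background 10.6%) and 111 losses (4.41%, background 4.96%). These shares count all sites, although only a site without H3K27ac in DMSO can gain it, and members held it less often in DMSO. Of 1105 members without H3K27ac in DMSO, 24.7% held it after 48 h of GW3965 and 41.4% after 48 h of rosiglitazone. The same shares over all 48 h LXRB sites were not counted, so gains are not placed against a background on that base. After 24 h the gains were 137 with GW3965 (5.45%, background 5.86%) and 438 with rosiglitazone (17.4%, background 12.9%), and the losses 188 (7.47%, background 7.56%) and 60 (2.38%, background 3.43%). A gain with both drugs at 48 h was seen at 208 members, with rosiglitazone alone at 249 and with GW3965 alone at 65. These counts, and those of H3K27ac in all 5 conditions or in none, were made at members alone and have no background. By rank, which rises where the DMSO list is shorter (23015 and 27701 H3K27ac peaks against 28561 and 28164 with rosiglitazone and 31824 and 27456 with GW3965 at 48 h), 1059 members (42.1%, background 36.2%) were above both DMSO libraries in both 48 h rosiglitazone libraries and 699 (27.8%, background 29.4%) in both 48 h GW3965 libraries. Below both DMSO libraries were 166 (6.60%, background 12.8%) and 181 (7.19%, background 9.59%).

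In DMSO 1404 members (55.8%) held RNAP2 and H3K27ac, 1017 (40.4%) RNAP2 alone, 7 H3K27ac alone and 88 neither. At 48 h of GW3965 the counts were 1398, 544, 175 and 399. Members with RNAP2 alone thus became fewer and members with neither more numerous, while members with both stayed near their number in DMSO. These joint states were counted at members alone, so whether the shift was particular to members is not known. Of the members that lost RNAP2 at 48 h of GW3965, 299 had no H3K27ac site in either condition, 109 kept one, 55 gained one and 29 lost one.

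The 5 strongest members that gained H3K27ac at 48 h of GW3965 also held LXRA sites at 2 and 48 h and PPARG sites at 2 h. At chr6:155447885-155448904 H3K27ac had no peak in DMSO and scored 420 and 339 after GW3965, with LXRA at 2302 and 2717 after 48 h and RNAP2 at 230 and 343 in DMSO and 482 and 383 after GW3965. At chr10:25190598-25191638 it had no peak in DMSO and scored 261 and 344, and at chr2:81885227-81885976 it had none and scored 112 and 128. At chr2:178116587-178117438 and chr6:46616602-46617570 1 DMSO library already held a peak, of 454 and 184. The 5 strongest members with a lost H3K27ac site were chr19:38797509-38803840, chr3:161067209-161068478, chr19:5689854-5694645, chr12:7046446-7047940 and chr15:85887544-85889025. At 3 of them 1 library of 48 h GW3965 still held a peak, with scores of 470, 356 and 199.97, and at chr19:38797509-38803840 1 DMSO library alone had a peak on the member.

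RNA-seq asked whether the genes for these factors changed. NR1H2, which encodes LXRB, lay between 60.6 and 66.9 CPM in DMSO at 48 h and between 51.7 and 55.0 CPM with GW3965. All 4 GW3965 libraries were below all 4 DMSO libraries, and the change of -0.25 (log2, SE 0.0563, edgeR quasi-likelihood test, Benjamini-Hochberg adjusted p = 0.000991) was short of the fold change of 2 needed for a call. NR1H2 mRNA was thus lower at 48 h of GW3965 than in DMSO, by less than the limit for a call. NR1H3, which encodes LXRA, lay between 67.3 and 83.1 CPM in DMSO and between 227 and 256 CPM with GW3965 (3.13-fold, edgeR adjusted p = 2.24e-13), but the LXRA of ChIP-seq came from the transgene. PPARG lay between 76.1 and 85.2 CPM in DMSO and between 37.0 and 39.95 CPM with GW3965 (0.474-fold, edgeR adjusted p = 1.78e-09). RXRA, the common partner, was at 1.35-fold and was not called. Of 7 receptor and corepressor genes tested 1 was higher and 1 lower, where 3.24% of all genes tested were higher and 2.54% lower. RXRG did not pass the filter on low counts.

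JUND, the subunit profiled at these sites, had between 242 and 284 CPM in DMSO at 48 h and between 152 and 174 CPM with GW3965. The groups did not overlap, and the change of -0.70 (log2, SE 0.101, edgeR adjusted p = 1.23e-05, 0.616-fold) was short of a call. Of 15 AP1 subunit genes 13 were tested, and BATF and BATF3 did not pass the filter. The list was chosen with earlier results of these data known, so its counts are a description. With GW3965 at 48 h 6 of the 13 were lower, where 2.54% of all genes tested were lower, and none was higher, where the background was 3.24%. At an unadjusted p under 0.05 all 13 differed from DMSO, 12 of them lower and BATF2 higher, where 26.2% of all genes tested were lower and 25.3% higher at that limit. The median change of the 13 was -0.87 (log2) beside 6.02e-05 over all genes.

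The subunits called lower with GW3965 than in DMSO at 48 h were ATF3, FOSL1, MAFF, FOS, FOSB and JUNB. ATF3, a stress-induced partner of JUN proteins, lay between 131 and 144 CPM in DMSO and between 13.9 and 18.8 CPM with GW3965 (log2 change -3.14, SE 0.125, edgeR adjusted p = 4.66e-13). FOSL1, which encodes FRA1, lay between 65.7 and 77.8 CPM in DMSO and between 12.9 and 14.5 CPM with GW3965 (log2 change -2.40, edgeR adjusted p = 8.22e-14). MAFF changed by -1.48, FOS by -1.43, FOSB by -1.42 and JUNB by -1.39 on the log2 scale, each at an edgeR adjusted p of at most 6.11e-08. JUN was at 0.574-fold, FOSL2 at 0.547-fold, JDP2 at 0.566-fold, MAFK at 0.591-fold and MAFG at 0.812-fold, and BATF2 was at 1.92-fold, all short of the fold change limit. With T0901317, which shares the 48 h DMSO libraries, 10 of the 13 were lower (background 2.59%), JUND among them at -1.06 (log2), and BATF2 was higher (background 2.80%). With rosiglitazone FOSL1 was higher (1.14, log2; background 1.99%) and BATF2 was lower (-1.58, log2; background 3.87%).

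**Figure D5:**
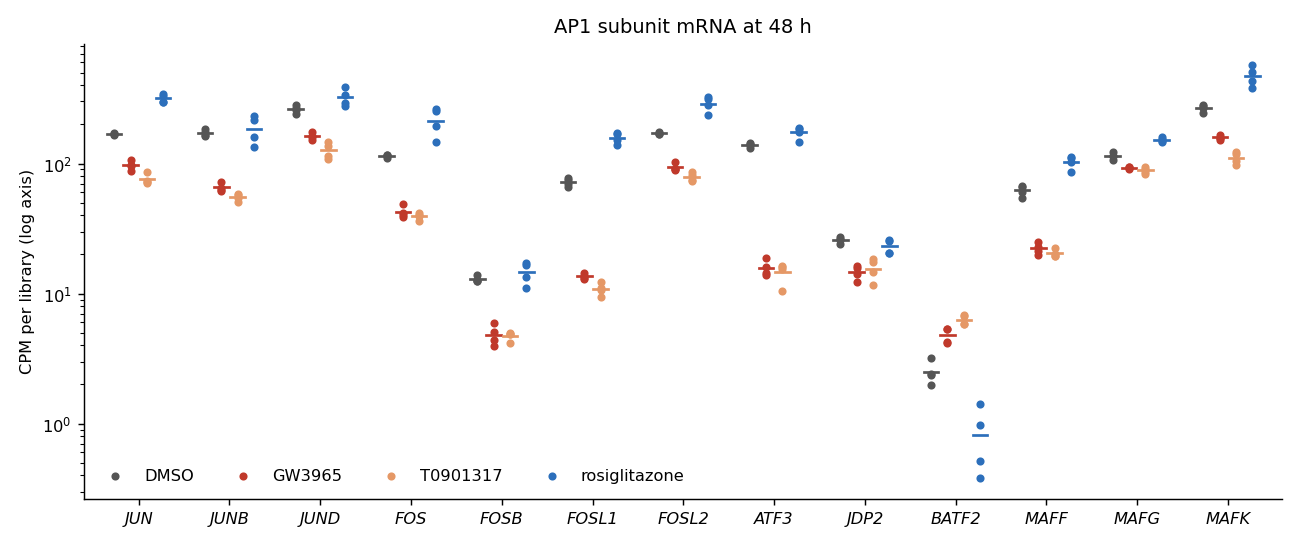
CPM of 13 AP1 subunit genes at 48 h on a log axis, with 1 point for each of 4 libraries of DMSO, GW3965, T0901317 and rosiglitazone and a short line at the mean. Every GW3965 library lies below every DMSO library except for BATF2, where it lies above; JUND runs from 242 to 284 CPM in DMSO and from 152 to 174 with GW3965.

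Of 32 genes listed as AP1 targets 29 were tested, and MMP1, MMP9 and MMP10 did not pass the filter. This list too was chosen with earlier results of these data known. Its counts are a description and not independent support for lower AP1 activity. With GW3965 at 48 h 10 were lower, beside the background of 2.54%, and none was higher, and the median log2 change was -0.78 beside 6.02e-05 over all genes. AREG, EREG and HBEGF, which encode ligands of the EGF receptor, had means of 256, 387 and 108 CPM in DMSO and of 16.9, 37.2 and 14.7 CPM with GW3965 (log2 changes of -3.92, -3.38 and -2.88, edgeR adjusted p of at most 3.87e-12). IL8, a chemokine gene, changed by -2.38, and DUSP1 and DUSP5, phosphatases that turn off MAP kinases, by -2.24 and -2.12 (log2, edgeR adjusted p of at most 9.33e-09). These 6 were the largest decreases of the list. With T0901317 at 48 h 13 of the 29 were lower (background 2.59%) and none higher (background 2.80%), with a median of -0.60 (log2). With rosiglitazone at 48 h 6 were higher (background 1.99%) and 4 lower (background 3.87%), with a median of 0.05 (log2). HMOX1 at 2.91 and MMP7 at -1.26 were among them.

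After 24 h of GW3965 1 AP1 subunit gene was higher, ATF3 at 1.10 (log2; background 0.445%), and 1 was lower, BATF2 at -1.39 (background 0.0918%). Among the targets VEGFA and HBEGF were higher, each at 1.12 (log2), and none was lower by the edgeR test. With rosiglitazone at 24 h FOS was higher at 1.11 (log2; background 0.780%), as were the targets EMP1, HMOX1 and S100A2, and no subunit or target was lower (background 1.40%). With T0901317 at 24 h JDP2 alone of both lists was higher, at 1.18 (log2; background 0.271%), and none was lower (background 0.00918%). The DMSO cells themselves differed between the 2 times. Mean CPM in DMSO was 108 at 24 h and 263 at 48 h for JUND, 3.46 and 139 for ATF3, 24.5 and 71.6 for FOSL1, 21.0 and 256 for AREG and 4.02 and 108 for HBEGF, with scaling factors set within each time point. The levels with GW3965 at 48 h lay between those of DMSO at 24 h and DMSO at 48 h for JUND and ATF3, and below both for FOSL1 and AREG. Mean CPM with GW3965 at 24 h and 48 h was 7.42 and 15.8 for ATF3, 30.2 and 42.4 for FOS and 14.7 and 22.2 for MAFF. It was 3.47 and 4.83 for FOSB, 64.5 and 65.6 for JUNB and 26.2 and 13.6 for FOSL1. The lower calls at 48 h were made against DMSO of 48 h and do not state a fall over time. Which hour of DMSO the JunD libraries stand beside is not given by the labels.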

How the data were processed

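ChIP-seq reads were aligned to hg19 with Bowtie and peaks called with MACS, and RNA-seq reads were processed with TopHat and Cufflinks, per the submitters' processing notes. Versions and the strand setting of counting were not stated in the sources used. The authors deposited 1 peak list for each replicate, with a MACS score per peak, and tables of raw read counts per gene. Here a Rep1 peak and a Rep2 peak sharing 1 bp or more were joined into a site. Shares of sites with a peak were compared between libraries by exact permutation tests, two-sided, adjusted over 8 tests by the Benjamini-Hochberg method. Counts were fitted per time point with edgeR 4.0.16 (quasi-likelihood test, TMM scaling, filterByExpr) in R 4.3.3, and calls needed a fold change of 2 or more with adjusted p below 0.01. RNA-seq totals lay between 21044798 and 51332656 counts at 24 h and between 32312041 and 50938082 at 48 h, with 21781 and 22470 of 51838 genes tested. Scripts were tested on simulated data. Members, gene lists and tests were chosen with earlier results of these data known. Named sites were the highest by the lower LXRB or JunD score, overall or among those that gained or lost a mark with 48 h of GW3965, and those at the limits of the rule. Named genes were the receptors and AP1 subunits and the 6 largest changes among the AP1 targets called. Alternatives covered overlap, score limit, site definition, peak number, replicates, scaling, filter, DESeq2 1.42.0 and fold limit. Libraries of H3K36me3 and inputs were not used here. The result of an AP1 target at 24 h is not reported here.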

Additional observations from a re-analysis of the deposited data

Results flagged for a closer look

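The H3K27ac share at members was lowest, at 58.3%, in Rep2 of 24 h GW3965, which stood apart from the other 3 GW3965 libraries. The gap in H3K27ac between members and late LXRB sites without JunD differed between GW3965 and rosiglitazone by -7.59 percentage points. It was flagged because the gap was below 0 in every GW3965 library and above 0 in every rosiglitazone library. That rule fixes the exact permutation p at 0.0286, so this p adds no support.

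At 48 h 1 library stood apart for FOSB in DMSO (13.9 CPM, the highest), FOSL2 with GW3965 (103 CPM, the highest) and IL8 with GW3965 (0.893 CPM, the lowest). With 46 RNA-seq groups and 8 groups of site shares looked at, chance gives about 1 such library in 20 groups.

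The response to GW3965 was compared between 48 h and 24 h for 23 named genes (edgeR quasi-likelihood test of the difference in 32 libraries). For 16 of them it differed by more than 1 on the log2 scale (edgeR, Benjamini-Hochberg adjusted p of at most 4.45e-06). How many of all 23140 genes in the fit passed the same limits was not counted. The 48 h response minus the 24 h response was -4.24 for ATF3, -2.50 for FOSL1, -1.78 for FOS, -1.76 for MAFF, -1.70 for JDP2, -1.58 for JUNB, -1.42 for FOSB, -1.10 for FOSL2, -1.04 for JUN and 2.33 for BATF2. It was -4.00 for HBEGF, -3.93 for AREG, -3.44 for EREG, -2.41 for DUSP5, -2.24 for DUSP1 and -2.17 for IL8. These AP1 targets were named for having the largest changes with GW3965 at 48 h. Their differences from 24 h use the same 48 h values and are a description. DMSO levels of these genes differed between the times, and their part in the differences was not tested.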

How the results depend on the processing

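The number of members was 1134 with scores of at least 200, 1480 without a peak of either 2 h replicate, 876 with equal numbers of top peaks in each library, and between 2303 and 3966 without a replicate, where 3966 came without replicate 1. The H3K27ac difference from late sites without JunD changed sign or call: 3.38 points with scores of at least 200 (exact permutation p = 0.0879), -4.95 without any 2 h peak (p = 0.0273, exact), -4.02 over 4 bands of the LXRB rank (p = 0.0449, exact, chosen after seeing the data), and from -7.21 without replicate 1 to 1.53 without replicate 2. Without a replicate, GW3965 against rosiglitazone was -11.0 to -7.40 points for H3K27ac and -18.6 to -15.4 for RNAP2. The RNAP2 differences from both sets kept their direction and call in every alternative. For GW3965 against rosiglitazone, H3K27ac was -8.02 points with equal top peaks (exact p = 0.0571), -3.38 less the share at persistent sites (exact p = 0.114), -7.95 at 48 h alone (exact p = 0.333) and -7.06 without GW3965 24 h replicate 2 (exact p = 0.0571). RNAP2 was -4.39 with equal top peaks (exact p = 0.0857), -13.6 at 48 h alone (exact p = 0.333) and -14.3 without GW3965 24 h replicate 2 (exact p = 0.0571). The replicate block gave -9.46 for H3K27ac and -12.6 for RNAP2, each at an exact p of 0.125, and crossed numbers, chosen after seeing the data, gave the same -9.46 and -12.6. The values 0.333, 0.0571 and 0.125 are the smallest those designs allow. Replicate numbers did not establish a pairing: rank differences of the drugs correlated at 0.280 (24 h) and -0.191 (48 h) for H3K27ac and at -0.347 and 0.266 for RNAP2, and for RNA-seq at -0.116 to 0.0375, with 0 of 4 numbers matching best. PPARG at 48 h against 2 h was 2.11 points with equal top peaks, which reversed the direction of the main result of -14.4. A fold change of 1.5 gave 3608 genes (1859 higher and 1749 lower), 12 AP1 subunits and 17 AP1 targets. With the replicate block 1287 genes were called, 720 higher and 567 lower, with 6 subunits, 2 receptor genes and 10 targets. Of 322 alternatives for named genes 315 left direction and call as they were and 7 newly passed. Library-size scaling shifted the median of all genes by -0.04 (log2). Genes near members and motif shares were not run, since no genome or annotation of hg19 was used here. Depth of the peak lists is unknown, so an absent peak is one under the score limit of 100.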
